A study of Mus musculus with 3 samples.

Results

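Slc10a6, Cpne8, Phox2a, Rnf122, Frmd4a and Trib1 are 6 mouse genes that read below 1 FPKM (fragments scaled to gene length in kilobases and to library size) in vehicle-treated adult cardiomyocytes (ACMs) and far higher after oncostatin M (OSM). They are 6 of the 56748 genes measured, and they were chosen by name for their vehicle and OSM levels. Their difference between these libraries is therefore described and not tested. ACMs were isolated from the hearts of wild-type mice at 8 to 10 weeks of age, plated on laminin, moved to serum-free medium and cultured for 16 hours with vehicle (0.1% BSA), 10 ng/mL human interleukin-6 (IL-6) or 10 ng/mL mouse OSM. All 3 media also held BSA, the contraction inhibitor 2,3-butanedione monoxime, insulin-transferrin-selenium and lipids. RNA was pooled before sequencing, so that each condition is 1 library with no replicate, and the number of mice behind each pool is not given in the sources used here.

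OSM and IL-6 belong to the cytokine family that signals through glycoprotein 130. OSM acts through the OSM receptor paired with glycoprotein 130, and IL-6 through its own receptor paired with it. Both activate Janus kinases, which phosphorylate STAT3, and in the heart this signaling is known from hypertrophy, remodeling and the response to injury. The 6 genes do not form 1 pathway. Slc10a6 encodes a sodium-dependent transporter of sulfated steroids from the bile acid transporter family, and Cpne8 a copine, a calcium-dependent phospholipid-binding protein. Phox2a encodes a homeodomain transcription factor of noradrenergic neurons, Rnf122 a membrane-bound RING ubiquitin ligase, Trib1 a pseudokinase that brings substrates to the ubiquitin ligase COP1, and Frmd4a a FERM-domain scaffold that links the polarity protein PAR3 to cytohesins.

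The libraries held 24939980 counts with vehicle, 26362446 with IL-6 and 30773001 with OSM. Socs3, the feedback inhibitor of this signaling, had 670 counts with vehicle, 646 with IL-6 and 18194 with OSM. Il6ra, the IL-6 receptor, had 24, 8 and 14 counts in the same order, Osmr had 1023, 1199 and 2929, and Il6st, which encodes glycoprotein 130, had 17343, 19092 and 13870. The cardiomyocyte markers, all 10 of which were detected, summed to between 10113 and 13401 FPKM. The sum was highest with OSM, while 2 of the 10 had fewer counts there, Ryr2 with 22606 counts with vehicle, 23555 with IL-6 and 9264 with OSM, and Ttn with 18901, 20398 and 7191. Genes of a length like that of Frmd4a had a median log2 ratio of -0.69 between OSM and vehicle. A part of gene length in the Ryr2 and Ttn values was not tested. Fibroblast markers summed to between 0.770 and 1.08 FPKM, endothelial markers to between 8.02 and 8.86, and smooth muscle and pericyte markers to between 13.0 and 15.3. The 8 macrophage markers summed to 13.8 FPKM with vehicle, 14.4 with IL-6 and 39.9 with OSM. Most of this was Cd68, at 12.0, 13.2 and 37.8 FPKM, while Ptprc, C1qa and C1qb were at 0 counts in every library. Csf1r was detected at 187 counts with vehicle, 166 with IL-6 and 209 with OSM. Lyz2 had 13, 4 and 31 counts, Mrc1 had 2, 14 and 8, and Adgre1 had 8, 0 and 6. A part of these cells in the values of the 6 genes was not tested. In bulk RNA, fewer cells of a type and less RNA per cell cannot be told apart.

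The 6 genes fell into 2 kinds by the counts behind their low vehicle level. Slc10a6, Cpne8 and Phox2a had 1, 0 and 2 counts with vehicle, under the floor of 3 counts that was set for a count of 0. Rnf122, Frmd4a and Trib1 had 161, 303 and 143 counts, so that they were detected. They read below 1 FPKM after division by all their exons merged, 9012, 23468 and 6248 bases. With IL-6 the first 3 genes had 4, 10 and 0 counts and the other 3 had 137, 330 and 187. With OSM all 6 had between 202 and 3193 counts. In the plot of levels, the OSM library is above both others for every gene.

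**Figure D1:**
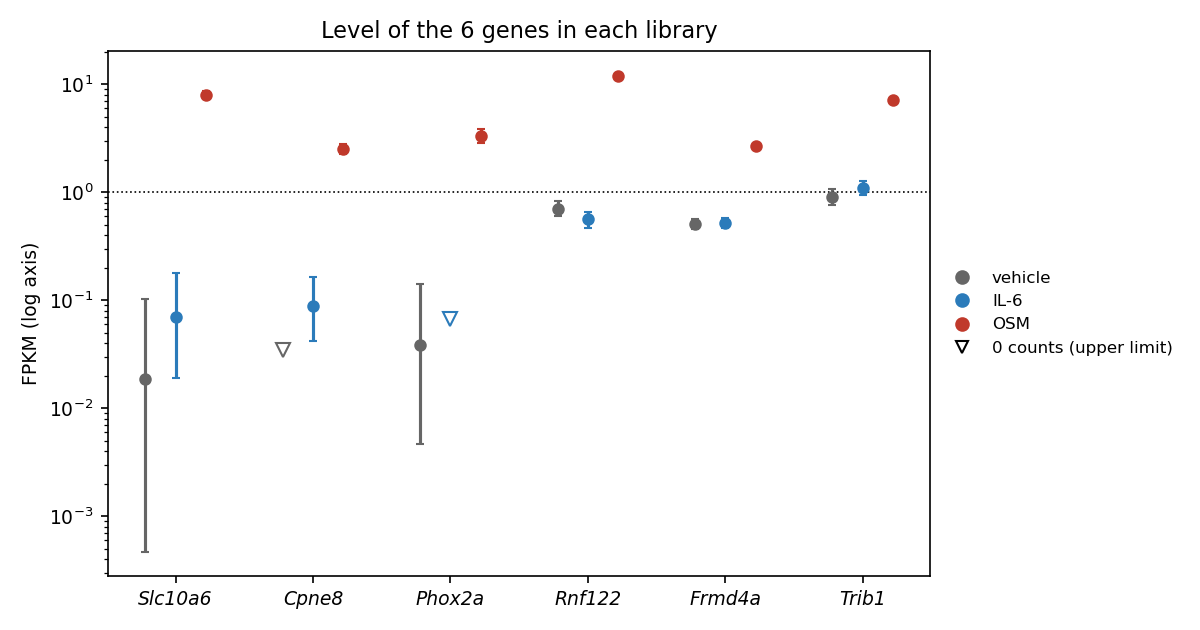
Level of each gene in FPKM on a log axis, with 1 point per library (gray, vehicle; blue, IL-6; red, OSM) and 95% intervals for counting error; open triangles are upper limits for 0 counts and the dotted line is 1 FPKM. The 6 OSM points lie between 2.53 and 11.9 FPKM, and the vehicle points between 0 and 0.905 FPKM.

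The sequences before the start sites of the 3 genes near 0 are shown because these genes had 0 to 2 counts with vehicle and their promoters differ in CG content. They are the 250 bases upstream of the start in RefSeq on build GRCm38.p6, printed 5′ to 3′ on the strand of the gene, and capitals mark each CG. The RefSeq promoter table matched 4 of the 6 genes, with 7 start sites, 4 of them of Frmd4a. Rnf122 and Trib1 were not matched.
Slc10a6, chr5:103629404-103629653, minus strand: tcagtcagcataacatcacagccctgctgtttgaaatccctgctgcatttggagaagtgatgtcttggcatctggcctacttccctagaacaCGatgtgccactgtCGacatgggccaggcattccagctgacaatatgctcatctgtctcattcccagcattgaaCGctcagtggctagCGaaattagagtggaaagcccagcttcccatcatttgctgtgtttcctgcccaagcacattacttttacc
Phox2a, chr7:101818063-101818312, plus strand: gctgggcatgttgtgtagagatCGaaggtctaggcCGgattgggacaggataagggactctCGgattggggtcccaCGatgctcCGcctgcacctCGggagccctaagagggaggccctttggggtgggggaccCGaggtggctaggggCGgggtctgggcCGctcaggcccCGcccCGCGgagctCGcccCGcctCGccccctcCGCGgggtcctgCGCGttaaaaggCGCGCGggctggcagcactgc
Cpne8, chr15:90679389-90679638, minus strand: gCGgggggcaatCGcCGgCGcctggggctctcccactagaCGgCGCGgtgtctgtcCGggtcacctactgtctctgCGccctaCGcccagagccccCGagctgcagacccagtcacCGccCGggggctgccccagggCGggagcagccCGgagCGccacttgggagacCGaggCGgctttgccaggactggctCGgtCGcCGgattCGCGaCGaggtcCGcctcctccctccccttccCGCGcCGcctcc

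The Slc10a6 sequence held 4 CG and 49.2% G or C. Phox2a held 22 CG with 70.4% G or C, and Cpne8 held 28 CG with 74.4%. Over all 32851 promoters of the table the median was 6 CG, with quartiles of 2 and 16, so that Phox2a and Cpne8 lay above the upper quartile and Slc10a6 below the median. The 4 starts of Frmd4a held 2, 5, 8 and 11 CG.

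Motifs were searched on both strands in 300 bases, 250 before the start and 50 after it. The STAT motif TTCNNNGAA was matched in 0 of the 7 windows and in 8.30% of all promoters. The AP-1 motif TGANTCA (7.81% of all promoters) and the E-box CACGTG (7.15%) were also matched in 0 of the 7. The C/EBP motif TTNNGNAA was matched in 2 windows, both of Frmd4a, at 142 and 71 bases before the start, and in 40.7% of all promoters. A TATA box, TATAAA, was matched in 1 window, at 243 bases before a Frmd4a start, and in 13.6% of all promoters. The letters of the motifs do not overlap in these matches. A window without a match says only that these letters are not in it.

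Slc10a6 (ENSMUSG00000029321; GRCm39, chr5:103753577-103777269, minus strand, 6 exons) had 1 count with vehicle, 4 with IL-6 and 509 with OSM. These are 0.0186 FPKM (95% interval for counting error, 0.000471 to 0.104), 0.0695 FPKM (0.0189 to 0.178) and 8.02 FPKM (7.34 to 8.75). With OSM the gene stood above 80.9% of all protein-coding genes by FPKM, and with vehicle above 39.1%. The log2 ratio of scaled counts, OSM against vehicle, was 8.75 with a counting interval from 6.27 to 14.06, which is wide because it rests on 1 vehicle count. Against the IL-6 library it was 6.85 (5.48 to 8.73). The IL-6 count was not used to choose the gene, but the 509 OSM counts in this ratio were. With 5 counts over the pair, IL-6 and vehicle were not compared.

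Of the 7 Slc10 family genes, 4 could be compared between OSM and vehicle, with at least 10 counts over the pair. A gene was called when its whole counting interval lay beyond 2-fold. Slc10a6 was called, as the choice fixes, and 0 of the other 3 were. Slc10a3 had 365 counts with vehicle, 297 with IL-6 and 649 with OSM, Slc10a7 had 71, 42 and 98, and Slc10a4, a vesicular orphan transporter, had 8, 0 and 19. Slc10a1 and Slc10a2, the bile acid transporters of liver and ileum, had at most 6 and 0 counts. The median log2 ratio of the 3 was 0.59, beside 0.0046 over all 15537 genes compared. The level of 8.02 FPKM with OSM was next to 10.7 FPKM for Slc10a3, 0.348 for Slc10a7 and 0.302 for Slc10a4.

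Cpne8 (ENSMUSG00000052560; chr15:90371685-90563635, minus strand, 20 exons) had 0 counts with vehicle, 10 with IL-6 and 315 with OSM. A count of 0 of 24939980 allows up to 0.120 CPM (counts scaled to the library total), or 0.0285 FPKM for this gene. The IL-6 and OSM levels were 0.0886 FPKM (0.0425 to 0.163) and 2.53 FPKM (2.26 to 2.83). Against the floor of 3 counts in the vehicle library, Cpne8 was at least 88.8-fold higher with OSM and at least 3.11-fold higher with IL-6. The lower ends of the counting intervals, which the calls rest on, were lower than these, at 6.17 and 1.06 in log2. With OSM it was 28.6-fold higher than with IL-6, a log2 ratio of 4.84 (3.94 to 5.91).

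Of the 9 copines, 5 were compared between OSM and vehicle. Besides Cpne8, Cpne4 was called higher, with 0 counts with vehicle, 0 with IL-6 and 14 with OSM, which is 0.0852 FPKM. Cpne3, at 814, 627 and 632 counts, and Cpne2, at 160, 171 and 357, were not called. Cpne9, at 13, 2 and 4 counts, was not called either. The remaining copines had at most 4 counts in any library. In FPKM with OSM, Cpne8 at 2.53 lay below Cpne2 at 3.74 and Cpne3 at 2.97, while with vehicle it was the one of these 3 without a count.

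Phox2a (ENSMUSG00000007946; chr7:101467520-101471933, plus strand, 3 exons) had 2 counts with vehicle, 0 with IL-6 and 202 with OSM. Its levels were 0.0389 FPKM (0.00471 to 0.140) with vehicle, 0 FPKM (0 to 0.0669) with IL-6 and 3.32 FPKM (2.88 to 3.81) with OSM. The floor of 3 counts is 0.0544 FPKM for this gene with IL-6. The log2 ratio of OSM against vehicle was 6.42 (4.55 to 9.47). Against the floor of 3 counts, Phox2a was at least 61.0-fold higher with OSM than with IL-6, with the lower end of the counting interval at 5.62 in log2. At 202 counts it was the lowest of the 6 in counts with OSM, and by FPKM it was the fourth, since its merged exons are the shortest of the 6 at 2035 bases.

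The last 95 bases of Phox2a overlap the end of Inppl1, which lies on the minus strand and encodes a phosphoinositide phosphatase. Inppl1 had 10911 counts with vehicle, 11620 with IL-6 and 10707 with OSM. Whether the counting used the strand is not given in the sources used here, so that reads over the shared bases cannot be assigned for certain. The log2 ratio of Inppl1, OSM against vehicle, was -0.27 (-0.31 to -0.23). The part of the shared bases in the Phox2a counts was not tested.

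Of 15 listed genes of the noradrenergic program, 7 were compared between OSM and vehicle. Ret, a receptor of glial-derived growth factors, was called higher with 8 counts with vehicle, 4 with IL-6 and 59 with OSM. Ddc, the aromatic amino acid decarboxylase, was called lower with 182, 161 and 70 counts. Hand2, a transcription factor of heart and sympathetic neurons, had 333, 468 and 480 counts and was not called. Dbh, which makes noradrenaline, had 5, 26 and 15 counts and was not called, and Th, which makes the precursor of dopamine, had 0, 10 and 2. The median log2 ratio of the 6 without Phox2a was 0.60.

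The noradrenaline transporter Slc6a2 and the nicotinic receptor subunit Chrna3 were at 0 counts in all 3 libraries. Of the 9 neuron and Schwann cell markers, Snap25, Stmn2, S100b and Sox10 were also at 0 in every library, and Prph had 2, 3 and 8 counts. The list summed to 27.1 FPKM with vehicle, 30.2 with IL-6 and 42.4 with OSM, mainly through Uchl1 at 21.1, 24.4 and 38.9 FPKM. A part of this in the Phox2a value was not tested.

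Rnf122 (ENSMUSG00000039328; chr8:31601848-31621510, plus strand, 6 exons) had 161 counts with vehicle, 137 with IL-6 and 3193 with OSM. Its levels were 0.706 FPKM (0.601 to 0.824), 0.561 FPKM (0.471 to 0.663) and 11.9 FPKM (11.5 to 12.3). The OSM level was the highest of the 6, above 85.3% of protein-coding genes. The ratio of OSM to vehicle was 16.8-fold, or 4.07 in log2 (3.84 to 4.31), and to IL-6 it was 21.1-fold, or 4.40 (4.15 to 4.66). IL-6 against vehicle was -0.33 (-0.67 to 0.0051), which was not called.

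Of 12 genes for membrane RING ligases related to RNF122, 9 were compared between OSM and vehicle, and Rnf122 alone was called. The other 8 had log2 ratios between -0.73, for Rnf150, and 0.47, for Rnf149, with a median of -0.16. Rnf24, the closest relative of Rnf122, had 135 counts with vehicle, 204 with IL-6 and 128 with OSM. It thus stood near Rnf122 with vehicle in counts, at 0.785 and 0.706 FPKM, and far below it with OSM, at 0.630 and 11.9 FPKM. Rnf13, Rnf167 and Rnf128, the most expressed of the list with vehicle in counts, had 2208, 1382 and 1041 counts with OSM, fewer than the 3193 of Rnf122. By FPKM with OSM they were at 7.38, 13.1 and 10.1, so that Rnf167 lay above Rnf122 at 11.9. Rnf133, Rnf148 and Znrf4 were at 0 counts in all 3 libraries.

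Trib1 (ENSMUSG00000032501; chr15:59520199-59528948, plus strand, 3 exons) had 143 counts with vehicle, 187 with IL-6 and 1331 with OSM. Its levels were 0.905 FPKM (0.763 to 1.07), 1.10 FPKM (0.952 to 1.27) and 7.13 FPKM (6.75 to 7.53). The vehicle interval reached past 1 FPKM, so that counting error alone could place Trib1 on the other side of the limit that chose it. The ratio of OSM to vehicle was 7.87-fold, 2.98 in log2 (2.73 to 3.24), and to IL-6 it was 6.45-fold, 2.69 (2.47 to 2.92). IL-6 against vehicle was 0.29 (-0.035 to 0.61) and was not called.

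The 10 genes of the Tribbles family and its partners were all compared. Trib1 and Cebpb were called higher with OSM against vehicle. Cebpb, which encodes the transcription factor C/EBPβ, had 1307 counts with vehicle, 1329 with IL-6 and 4087 with OSM, a log2 ratio of 1.40 (1.31 to 1.49). Cebpa, a substrate that TRIB1 brings to COP1, had 147, 197 and 269 counts and was not called. Trib2 had 253, 218 and 142 counts with a log2 ratio of -1.07 (-1.38 to -0.77), and Trib3 had 5528, 6057 and 6073 with a ratio of -0.11 (-0.16 to -0.053). Neither was called. Cop1, the ligase itself, had 2327, 2092 and 2289 counts. With OSM, Trib1 at 7.13 FPKM was above Trib2 at 1.10 and below Trib3 at 95.7, and with vehicle it was below both, at 0.905 beside 2.31 and 102.8 FPKM.

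Frmd4a (ENSMUSG00000026657; chr2:4022528-4618854, plus strand, 23 exons) had 303 counts with vehicle, 330 with IL-6 and 1878 with OSM. Its levels were 0.510 FPKM (0.455 to 0.571), 0.519 FPKM (0.464 to 0.578) and 2.68 FPKM (2.56 to 2.80). The ratio of OSM to vehicle was 5.24-fold, 2.39 in log2 (2.21 to 2.57), the smallest of the 6 as measured. Compared genes of similar length had a median log2 ratio of -0.69, and with this subtracted Frmd4a was at 3.08, level with Trib1 at 3.08. The same step raised Rnf122 from 4.07 to 4.41. It lowered Slc10a6 from 8.75 to 8.47, Phox2a from 6.42 to 6.14 and Cpne8, by its bound, from 6.47 to 6.43. To IL-6 the ratio of Frmd4a was 5.16-fold, 2.37 with an upper bound of 2.54, and IL-6 against vehicle was 0.023 (-0.21 to 0.25). The 14 genes that overlap Frmd4a in the authors' annotation, lncRNAs, pseudogenes and 1 snRNA, had 0 counts in every library.

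Of 16 FERM adaptors, cytohesins and PAR polarity genes, 14 were compared between OSM and vehicle. Frmd4a was called higher and Pard3b, a PAR3 paralog, was called lower, with 492 counts with vehicle, 533 with IL-6 and 201 with OSM. Frmd4b, the closest relative of Frmd4a, had 29, 27 and 81 counts, a log2 ratio of 1.24 (0.61 to 1.91), and was not called. Arf6, the small GTPase that cytohesins activate, had 892, 893 and 2071 counts with a ratio of 0.97 (0.86 to 1.09) and was not called. Pard3 had 1598, 1662 and 1423 counts, and Cyth1, Cyth2 and Cyth3 had log2 ratios between -0.089 and 0.43. The median of the 13 genes without Frmd4a was 0.10.

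**Figure D2:**
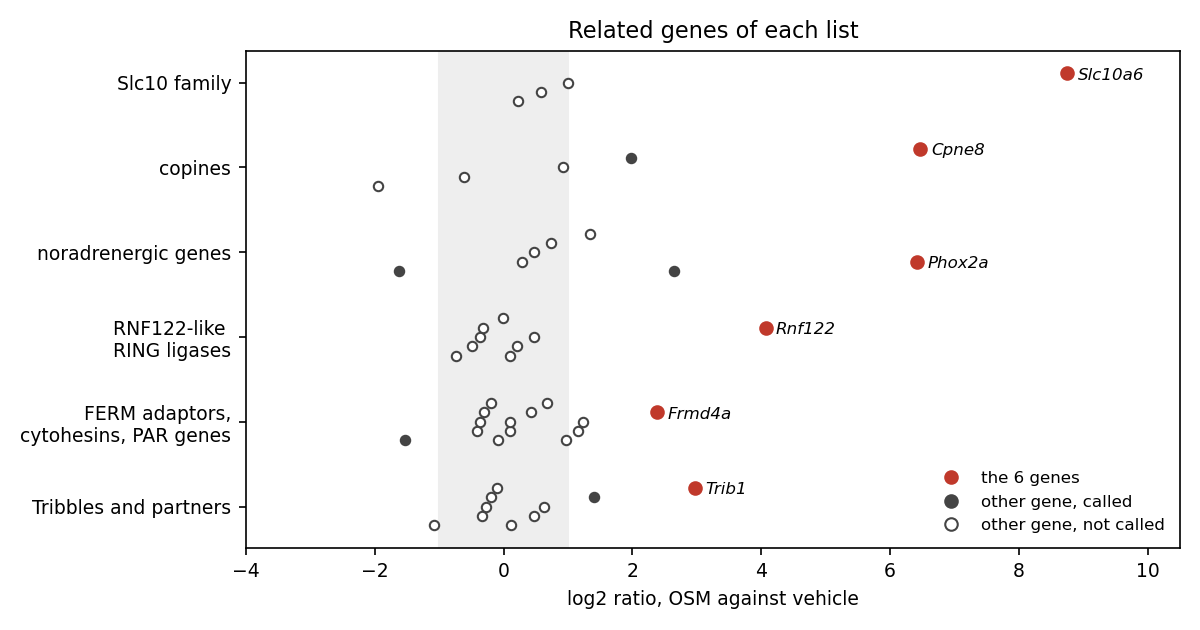
Log2 ratio of OSM to vehicle for the compared genes of the 6 lists of related genes, 1 point per gene; red points are the 6 genes, filled points are other genes whose whole counting interval lay beyond 2-fold, open points were not called, and the shaded band is 2-fold either way. Cpne8 and Cpne4 are drawn at their bounds against 3 counts. Besides the 6 genes, 3 points to the right (Cpne4, Ret and Cebpb) and 2 to the left (Ddc and Pard3b) are filled.

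Between OSM and vehicle, 581 of 15537 compared genes were called higher, which is 3.74%. All 6 genes were among them, which their choice fixes. Among genes under 1 FPKM with vehicle, 371 of 5415 compared were called higher, or 6.85%. Between IL-6 and vehicle, 274 of 15472 genes were called higher, or 1.77%, and 268 of 5348 (5.01%) of those under 1 FPKM with vehicle. Of the 6 genes, 4 could be compared there and 1, Cpne8, was called, with 10 counts against 0. This call was lost when the libraries were thinned to equal totals, with an assumed spread between replicates of 0.2 or 0.4, and at 4-fold. The intervals of the other 3 all lay within 2-fold of no difference.

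Between OSM and IL-6, 659 of 15544 genes were called higher, or 4.24%. All 6 genes were called higher there. This comparison shares its OSM library with the one that chose the genes, and the vehicle library enters both other comparisons. For Rnf122, Frmd4a and Trib1, the log2 ratios of OSM to IL-6 were 4.40, 2.37 and 2.69, beside 4.07, 2.39 and 2.98 against vehicle. For Slc10a6, Cpne8 and Phox2a they were 6.85, 4.84 and at least 5.93, beside 8.75, at least 6.47 and 6.42. When a spread between replicates of 0.4 (as a coefficient of variation) was assumed in edgeR, Frmd4a and Trib1 were not called against either library and the other 4 genes were.

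Of 43 related genes of the 6 lists compared between OSM and vehicle, 3 were called higher (6.98%, beside 3.74% of all compared genes) and 2 lower (4.65%, beside 5.43%). Between OSM and IL-6, 4 of 43 were called higher (9.30%, beside 4.24%) and 1 lower (2.33%, beside 5.42%). These are too few genes to read a difference from the shares. Slc10a4, Cpne4, Ret and Cebpb were those called higher against IL-6 besides the 6 genes, and Pard3b the one called lower. Slc10a4 and Cpne4 had 0 counts with IL-6, against 19 and 14 with OSM. Between IL-6 and vehicle, 1 of 42 related genes was called higher (2.38%, beside 1.77% of all compared genes) and 0 lower (beside 1.74%). This gene was Th, with 10 counts against 0, the same counts as Cpne8. Ret and Cebpb, at 4 and 1329 counts with IL-6 beside 8 and 1307 with vehicle, were not called there.

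By FPKM, the order with OSM was Rnf122 at 11.9, Slc10a6 at 8.02, Trib1 at 7.13, Phox2a at 3.32, Frmd4a at 2.68 and Cpne8 at 2.53. Slc10a6 and Trib1 did not differ beyond their counting intervals, and neither did Frmd4a and Cpne8. With vehicle the order was Trib1, Rnf122 and Frmd4a, then Phox2a, Slc10a6 and Cpne8. The intervals of Trib1 and Rnf122 overlapped there, as did those of Phox2a and Slc10a6 and of Slc10a6 and Cpne8. With IL-6, Trib1 was above Rnf122, whose interval overlapped that of Frmd4a, and Cpne8, Slc10a6 and Phox2a followed with overlapping intervals.

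The gene length used in the FPKM decides which of the 6 count as low. The deposited FPKM divides by all exons of a gene merged, 9012 bases for Rnf122, 23468 for Frmd4a and 6248 for Trib1. The canonical transcripts in GENCODE M39 are 3585, 6309 and 4382 bases long, which is 39.8%, 26.9% and 70.1% of the merged length, beside a median of 81.8% over all compared protein-coding genes. Divided by these lengths instead, the vehicle levels were 1.78 FPKM for Rnf122, 1.90 for Frmd4a and 1.29 for Trib1, all above 1. Slc10a6, Cpne8 and Phox2a stayed under 1, at 0.0186, 0 and 0.0490 FPKM. All counts of a gene were kept in this division, also any outside the canonical transcript, so that these levels are upper limits. Where the counts lie along each gene was not tested. This second length was chosen after the values had been seen, and it leaves every ratio between libraries as it was.

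The order with OSM also moved with the length. By canonical transcript it was Rnf122 at 29.8 FPKM, Trib1 at 10.2, Frmd4a at 9.97, Slc10a6 at 8.02, Phox2a at 4.19 and Cpne8 at 3.08. Frmd4a, the fifth by merged length, was then the third, above Slc10a6. Of 136 genes under 1 FPKM with vehicle that were called higher, reached 1 FPKM with OSM and have a canonical length, 14 were at 1 FPKM or more with vehicle by that length.

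**Figure D3:**
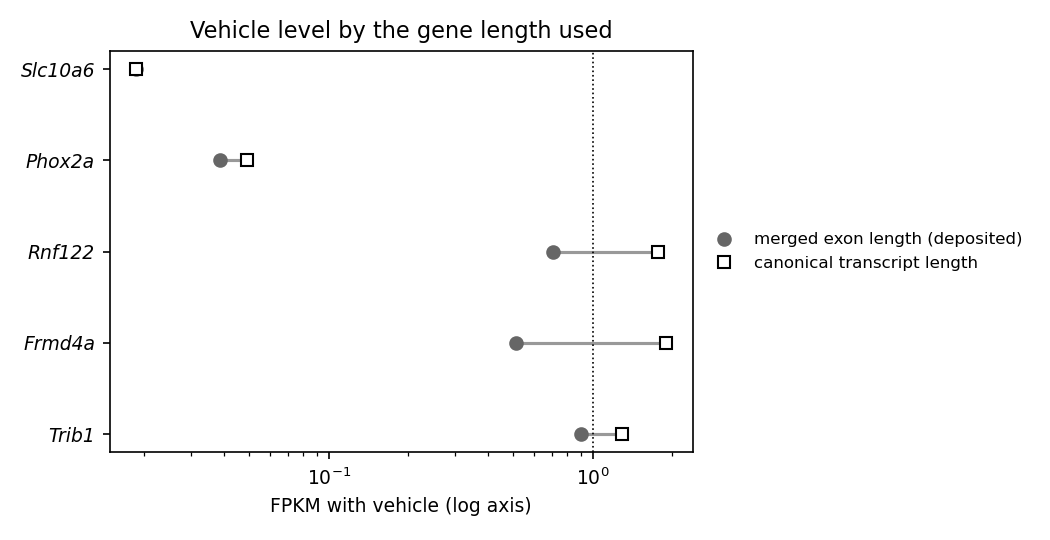
Vehicle level in FPKM on a log axis for 5 of the genes, by merged exon length as deposited (gray circles) and by canonical transcript length (open squares); Cpne8, at 0 counts, is not drawn, and the dotted line is 1 FPKM. The squares of Rnf122, Frmd4a and Trib1 lie right of the line, at 1.78, 1.90 and 1.29 FPKM, and those of Slc10a6 and Phox2a left of it.

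Of the 371 genes under 1 FPKM with vehicle that were called higher with OSM, 139 reached at least 1 FPKM with OSM, and the 6 genes spread over this list. By log2 ratio, Slc10a6 was 1st of the 139, Cpne8 4th by its bound, Phox2a 5th, Rnf122 22nd, Trib1 47th and Frmd4a 76th. By FPKM with OSM, Rnf122 was 4th, Slc10a6 11th, Trib1 12th, Phox2a 32nd, Frmd4a 54th and Cpne8 58th. The median of the 139 was 2.51 in log2 and 2.05 FPKM with OSM, so that Frmd4a lay below the median in ratio and all 6 above it in level. Of the 139 genes, 24 had 3 or fewer counts with vehicle, as Slc10a6, Cpne8 and Phox2a did, and 8 had over 100, as Rnf122, Frmd4a and Trib1 did.

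**Figure D4:**
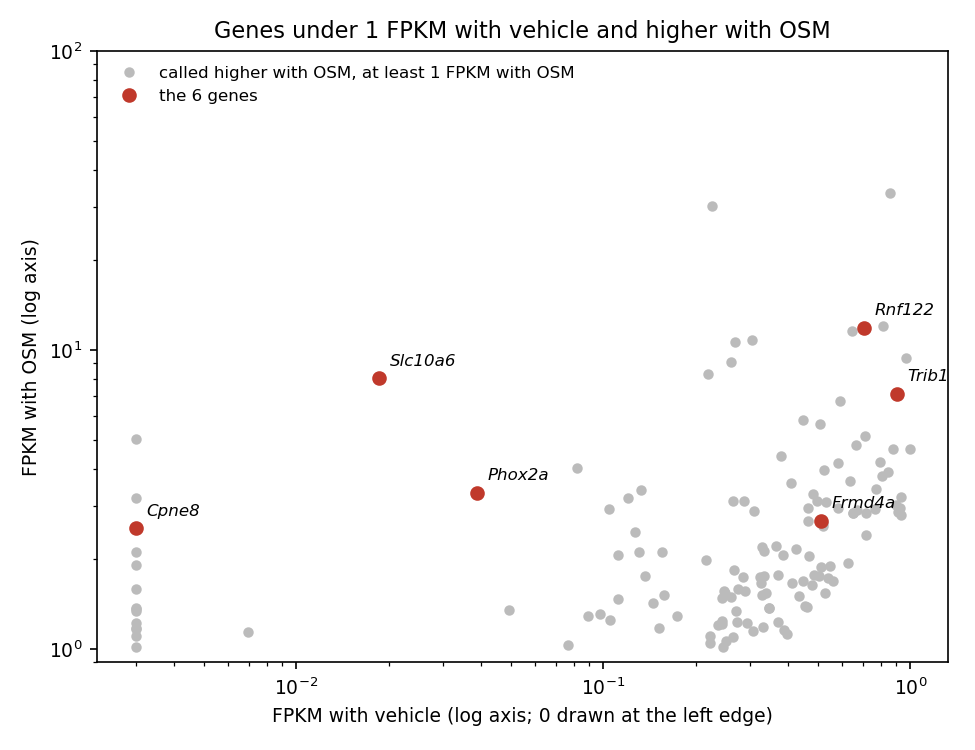
FPKM with OSM against FPKM with vehicle, both on log axes, for the 139 genes under 1 FPKM with vehicle that were called higher and reached 1 FPKM with OSM (gray), with the 6 genes in red; genes at 0 with vehicle are drawn at the left edge. Rnf122 and Trib1 lie toward the upper right, and Slc10a6 stands alone at 0.0186 FPKM with vehicle and 8.02 with OSM.

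The other genes in the 10 largest ratios of this list were Egfr, Steap4, P2ry6, Inhbb, Serpina3n, Srp54b and Sec1. Egfr, the epidermal growth factor receptor, had 2 counts with vehicle, 4 with IL-6 and 386 with OSM, so that it was near 0 without OSM as Phox2a was, at 1.14 FPKM with OSM. Steap4, a metalloreductase, had 18, 17 and 2849 counts, and P2ry6, a receptor for uridine nucleotides, had 6, 15 and 347. Srp54b differed from the 6 genes in the IL-6 library, with 25, 686 and 1119 counts. Serpina3n had 45, 90 and 2059 counts.

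Genes at the limit of 1 FPKM with vehicle had similar values on both sides. Just inside were Arc at 0.931, Tmem88b at 0.968 and Sema7a at 0.995 FPKM, with log2 ratios of 1.59, 3.27 and 2.23. Just outside were Zc3h12a at 1.00, Dyrk3 at 1.03 and ENSMUSG00000121092 at 1.04 FPKM, with 1.68, 2.49 and 2.69. Trib1, at 0.905 FPKM and 2.98, was the member closest to the limit.

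The genes whose pattern lay nearest to the median of the 6 over both log2 ratios, 5.09 for OSM and 0.15 for IL-6 against vehicle with 0.5 counts added, were Sec1, Vgll2, Dnaaf1, Inhbb and Rassf7, out of 3567 protein-coding genes under 1 FPKM with vehicle. Their distances were between 0.079 and 0.22 log2 units over the 3 libraries. Sec1, a fucosyltransferase gene, had 19 counts with vehicle, 24 with IL-6 and 794 with OSM, and Inhbb, the activin beta B subunit, had 29, 34 and 1349. Vgll2, Dnaaf1 and Rassf7 had 0, 0 and 18 to 20 counts. The 6 genes were themselves farther from their median, between 1.14 for Rnf122 and 5.86 for Cpne8, so that this median stands for none of them closely.

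Protein-coding genes within 500 kb of the 6 genes were compared in the same way. Beside Slc10a6, 7 neighbors were compared between OSM and vehicle, beside Cpne8 3, beside Phox2a 19, beside Rnf122 4, beside Frmd4a 8 and beside Trib1 3. Of these 44 genes, 0 were called higher, beside 3.74% of all compared genes, and with 44 genes a share of 0 is near that background. Called lower was 1, the fucosyltransferase Fut10 near Rnf122, with 31 counts with vehicle, 17 with IL-6 and 4 with OSM. The median log2 ratios of the neighbors were between -0.63 beside Cpne8 and 0.082 beside Rnf122. Ptpn13, at 7408 bases the closest of those beside Slc10a6, had 122, 128 and 117 counts. Rhog, at 416397 bases from Phox2a, had 265, 310 and 636 counts and a log2 ratio of 1.02 (0.81 to 1.23), which was not called.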

How the data were processed

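Gene expression was measured by RNA sequencing in 3 libraries of pooled RNA, 1 per condition, from cultured ACMs. Poly-A RNA was fragmented and primed with random hexamers, and read pairs were aligned to GRCm39 and counted per gene by featureCounts. The submitters' processing notes list fastp, HISAT2 2.2.1, featureCounts 2.0.6 and edgeR 4.0.16. The authors deposited whole-number counts per gene, not normalized, and FPKM values for the same genes. The deposited FPKM equals the count divided by merged exon length and by 1 constant per library. The deposited columns of gene descriptions gave names and coordinates, and no sample column was left unmatched (0).

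Each gene was taken by its name in the count table. The 6 genes and the lists were chosen with earlier results of these data known. From the counts, TMM factors were computed over all genes of each pair of libraries with edgeR 4.0.16 in R 4.3.3. A pair's genes that held 10 counts or more in sum were compared by the log2 ratio of scaled counts. Its 95% interval was taken from the Clopper-Pearson bounds of one count as a share of both (scipy 1.17.1), and a gene was called when the whole interval lay beyond 2-fold. Intervals of levels are exact Poisson. All intervals and floors (3 counts, 0.120, 0.114 and 0.0975 CPM with vehicle, IL-6 and OSM) cover counting error only. With 1 library per condition no test across replicates could be made and no P-value is given, and each comparison is between libraries rather than conditions.

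Exon numbers and canonical transcripts are from GENCODE M39, which held 56017 of the 56748 identifiers. Exon sequence was compared between genes with BLAST 2.17.0 at 97% identity or more over at least 100 bases. By this measure 6.93% of Phox2a, 2.19% of Frmd4a and 2.40% of Trib1 was shared with 1 other gene each, and 0% of the others. These genes were Inppl1, Gm13179 and Gm56697. Inppl1 overlaps Phox2a itself and Gm13179 overlaps Frmd4a, each on the opposite strand. Promoters are those of RefSeq on GRCm38.p6, used for sequence only. Calls were tested on simulated data. Alternatives were DESeq2 1.42.0 factors, total counts, no minimum count, 4-fold or point-estimate calls, an assumed coefficient of variation of 0.2 or 0.4, thinning, a prior count of 2, FPKM ratios, a correction for length, and other limits for a low level. Named genes were the 6 genes, the 10 largest ratios among genes under 1 FPKM with vehicle and at least 1 FPKM with OSM, the 5 nearest in pattern, up to 3 called genes of each list per direction, 3 genes on each side of 1 FPKM and overlapping genes. Other genes of the lists, receptors, Socs3 and neighbors were added to these with their values in view. Some genes of the lists are not reported here.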

Additional observations from a re-analysis of the deposited data

How the results depend on the processing

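All 6 genes were called higher with OSM, against vehicle and against IL-6, under every alternative except edgeR's exact test with an assumed coefficient of variation of 0.4, where Frmd4a and Trib1 were not called in either comparison and 4 of 6 remained. The prior count changes only the point ratio, and all 6 genes exceed the minimum count in both comparisons. Neither alternative could therefore change these calls. The direction of every compared ratio of the 6 genes was kept. Between IL-6 and vehicle the call of Cpne8 was lost (0 of 6 called) under the 4-fold rule, under an assumed coefficient of 0.2 or 0.4 and after thinning to equal totals, where fewer than the 10 counts needed were left. The number of low-level genes called higher with OSM moved from 371 to 89 under the 4-fold rule, 1202 by the point estimate and 35 with a coefficient of 0.4, and lay between 286, over protein-coding genes alone, and 428 under the other alternatives. Of the related genes, 5 were called besides the 6, and this became 0 under the 4-fold rule, 11 by the point estimate and 0 with a coefficient of 0.4. By canonical transcript length, 3 of the 6 genes were under 1 FPKM with vehicle in place of 6. The 5 genes nearest in pattern shared 0 genes with those nearest on OSM against vehicle alone. The Slc10a6 ratio to vehicle ranged from 7.25, with a prior count of 2, to 8.75. No paired analysis was possible because each group has 1 library and the labels carry no replicate numbers, and for the same reason no library could be left out.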

Other observations

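Phox2a was 1 of 225 homeobox genes in the authors' transcription factor annotation, of which 37 could be compared between OSM and vehicle. Of the 36 besides Phox2a, which was chosen for its OSM level, 2 were called higher (5.56%, beside 3.74% of all compared genes), Hhex and Lhx6. Phox2a had 2 counts with vehicle and 202 with OSM, Hhex had 2 counts with vehicle, 3 with IL-6 and 24 with OSM, and Lhx6 had 0, 10 and 11. Of these 3, Phox2a alone reached 1 FPKM with OSM, and the others were at 0.159 and 0.0766 FPKM. Six4, with 335 counts with vehicle, 363 with IL-6 and 128 with OSM, was called lower. The cardiac homeobox genes Nkx2-5, at 1707, 1812 and 2501 counts, and Hopx, at 1727, 1752 and 2142, were not called. In FPKM with OSM, Phox2a at 3.32 lay below Nkx2-5 at 48.7 and Hopx at 47.3, and near Pknox1 at 3.75 and Meis1 at 4.40.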
